A study of Mus musculus with 2 samples.

Results

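Histone genes were described in 2 RNA-seq libraries of mouse primordial germ cells (PGCs), from which eggs and sperm descend. Members were the rows whose symbols start with Hist1h to Hist4h, named the replication-dependent genes here, and the rows starting with H2af, H3f3 or H1f together with Cenpa, named the variant genes. The rule used names alone and found 82 of the 18877 genes in the table, of which 67 were replication-dependent and 15 were variant. The PGCs came from C57BL6 embryos at embryonic day 9.5 (E9.5), were isolated with an antibody to the surface antigen SSEA1 and received no treatment. The methods name 2 ways, flow sorting with antibodies to both CD61 and SSEA1, or magnetic beads with the SSEA1 antibody. Both libraries belong to this 1 group, so no comparison between conditions was possible and no test was made. The methods describe female embryos and an amplification of full-length cDNA from few cells that starts at poly(A) tails, whereas the kit in the labels is another one, which leaves the library type uncertain.

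Histones H2A, H2B, H3 and H4 form the octamer around which DNA is wrapped, and the linker histone H1 binds where the DNA enters and leaves it. The replication-dependent genes lie in clusters, are transcribed in S phase and supply the bulk of histone for new chromatin. Their mRNAs typically end in a short stem-loop in place of a poly(A) tail. Variant genes are single genes, mostly with introns and polyadenylated mRNAs, and they supply histones that can be placed into chromatin outside S phase. In germ cells the mix of histones is known to change during development, and sperm and egg precursors use some histones of their own.

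The values are TPM, a level that is divided by gene length and set to a common total in each library. Recovered depth was 15907733 reads for replicate 1 and 5457215 for replicate 2, and all intervals are exact 95% Poisson intervals from these reads, which cover counting error only. PGC markers were present in both libraries. All 10 markers on the list reached a TPM of 1 in each, where 60% of all genes did. They ran from Pou5f1 at 1.54 and 1.46 TPM to Dppa3 at 5013 and 5075 TPM. Erythroid markers were present too. Of 7 listed, 6 had a row and 5 reached a TPM of 1 in each library, led by the embryonic globin Hba-x at 2331 and 2065 TPM, and their summed level was 3983 and 3765 TPM. The 4 endothelial genes with a row summed to 12.5 and 10.8 TPM, the 4 macrophage genes to 19.4 and 9.53 TPM and the 4 mesenchyme genes to 2.37 and 3.95 TPM. What RNA from such cells contributed to the histone levels was not tested.

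The stem-loop that ends replication-dependent histone mRNAs was found in the annotated transcripts of 45 of the 67 genes. It was searched for as a run of 16 bases starting with GG and ending with CC, with 6 paired bases on each side of a 4-base loop that starts with T, within 100 bases after the stop codon. It lay 21 to 58 bases after the stop, with a median of 31. Of the 20 coding genes without one, 15 had a gene model that ends within 15 bases of the stop and so could not hold it. The same search found a stem-loop in 14 of the 12602 other protein-coding genes in the table, or 0.111%. Replication-dependent genes had 8 forms, of which 5 that differ in stem or loop are shown, each in the gene with the highest level that carries it, followed by that of H2afx, with the loop in capitals:
Hist1h2ag, chr13:22042483-22042498, minus strand: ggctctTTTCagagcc
Hist1h2bk, chr13:22036300-22036315, plus strand: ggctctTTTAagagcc
Hist2h2ac, chr3:96220418-96220433, minus strand: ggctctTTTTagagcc
Hist1h4n, chr13:21831798-21831813, minus strand: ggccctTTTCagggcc
Hist1h4b, chr13:23757366-23757381, plus strand: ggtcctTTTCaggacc
H2afx, chr9:44335240-44335255, plus strand: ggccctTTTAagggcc

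The stem differed by family. All 12 H4 genes with a stem-loop had a stem that opens with ggccct (10 genes) or ggtcct (2 genes), and all 33 genes of the other families opened with ggctct. The form of Hist1h2ag occurred in 26 genes, that of Hist1h4n in 7 and that of Hist1h2bk in 5. H2afx, the H2A variant that is phosphorylated at DNA breaks, was the member among the variants with a stem-loop, 46 bases after its stop, and its transcript model runs 822 bases past it. Positions are on mm10 (GRCm38) with transcripts of GENCODE M21.

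Replication-dependent genes had a middle level somewhat above that of all genes and far below that of the variants. Their median was 3.83 TPM in replicate 1 and 4.79 TPM in replicate 2 (mean 4.31 ± 0.679, SD, n = 2), and on the log2(TPM + 1) scale it was 2.27 and 2.53, against 1.89 and 1.85 for all genes in the table and 2.29 and 2.21 for its protein-coding genes. A TPM of 1 or more in both libraries was reached by 49 of 67, or 73.1%, where 60% of all genes did. Listed at 0 in at least 1 library were 3 members (4.48%), where 18.9% of all genes were. All genes include noncoding ones, whereas 65 of the 67 members are protein-coding. Of the 12679 protein-coding genes in the table, 8813 reached a TPM of 1 in both libraries and 1016 were at 0 in at least 1. The variants had a median of 40.9 and 41.2 TPM (mean 41.0 ± 0.242, SD, n = 2), or 5.39 and 5.40 on the log2 scale, and 13 of 15 reached a TPM of 1 in both libraries. The medians of variant and replication-dependent genes thus differed by 2.99 ± 0.177 (SD, n = 2) on the log2 scale.

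In total the replication-dependent genes held 2170 and 2354 TPM, 0.217% and 0.235% of a library, and the variants held 7562 and 7169 TPM, 0.756% and 0.717%. The variant total was thus 3.48 and 3.04 times the replication-dependent total, although the variants have fewer genes. In reads, which also count length, the ratio was 17.1 and 14.7. Most of the replication-dependent level lay in genes with an exon over another gene's exon. The 41 genes with no such exon held 0.0434% of TPM (mean of both libraries), against 0.226% for all 67. The genes left out include the 4 highest H2A genes, and where their reads came from was not tested. How far the libraries caught histone mRNAs without a poly(A) tail was not tested, so levels of the replication-dependent genes are levels in these libraries.

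**Figure D1:**
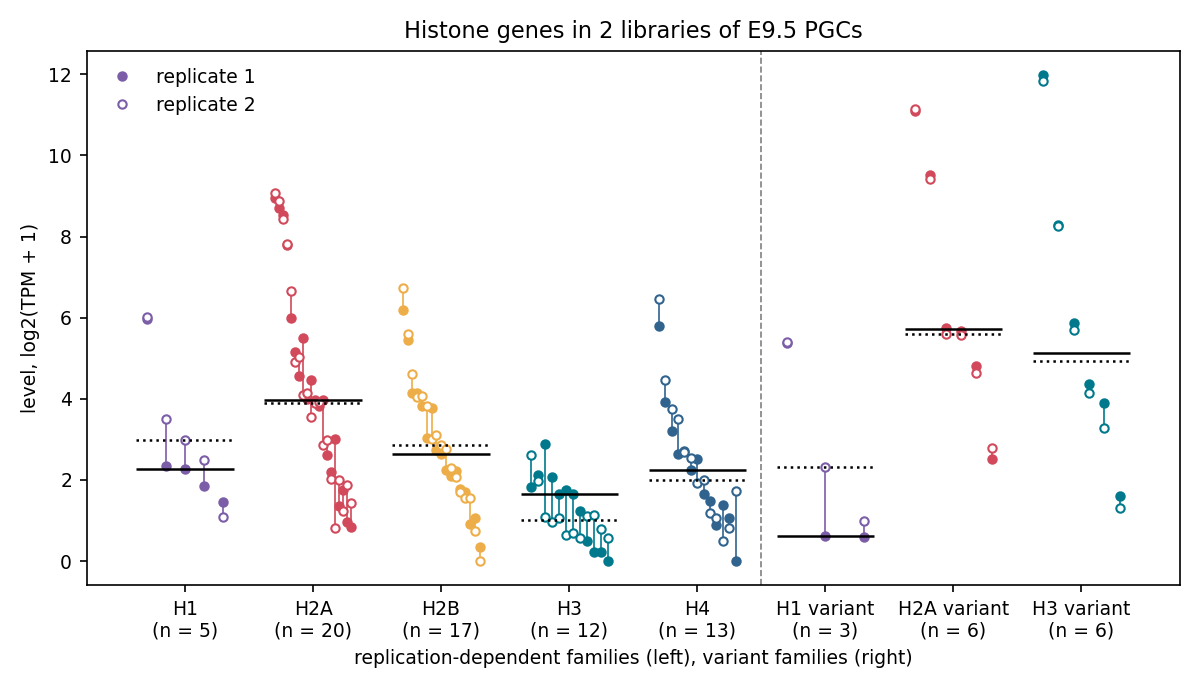
Level of each of the 82 histone genes in log2(TPM + 1), by family, with replicate 1 as filled and replicate 2 as open circles joined by a line, and with the family median as a solid (replicate 1) or dotted (replicate 2) bar. The 4 highest replication-dependent genes are all H2A, and of the replication-dependent families H3 is lowest. The variants H3f3b, H2afz and H2afv lie above every replication-dependent gene.

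The H2A genes, whose product pairs with H2B in the octamer, carried most of the replication-dependent level. The 20 H2A genes summed to 1760 and 1838 TPM, or 81.1% and 78.1% of all replication-dependent TPM. Hist1h2ah was at 492 TPM in replicate 1 (interval 470 to 515) and 543 TPM in replicate 2 (504 to 584), Hist1h2ag at 415 and 466 TPM, Hist1h2ap at 369 and 345 TPM and Hist1h2ao at 219 and 226 TPM. These 4 genes alone held 69.0% and 67.1% of the replication-dependent TPM. Below them came Hist1h2aj, annotated as a pseudogene, at 62.2 and 100 TPM, and Hist1h2ae at 34.7 and 28.9 TPM. The family median was 14.7 and 14.0 TPM, so most H2A genes lay far under the leading genes, and Hist2h2aa2 was the lowest by mean at 0.797 and 1.70 TPM.

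The H2B genes were lower. The 17 genes summed to 209 and 260 TPM, with a median of 5.25 and 6.28 TPM. Hist1h2bm led at 71.5 TPM (64.3 to 79.3) and 104 TPM (89.9 to 121), followed by Hist1h2bc at 42.4 and 47.4 TPM. The proteins enter the octamer as a dimer, and the summed level of the H2A genes was 8.42 and 7.06 times that of the H2B genes.

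The H3 and H4 genes, whose products form the tetramer at the centre of the octamer, were lower still. The 12 H3 genes summed to 24.2 and 16.4 TPM with a median of 2.15 and 1.01 TPM. None reached a TPM of 10 in both libraries, where 4784 of all 18877 genes did. The highest by the mean of both libraries was Hist1h3i at 2.56 and 5.09 TPM, from 10 and 7 reads, with intervals of 1.23 to 4.71 and 2.05 to 10.5 TPM. In replicate 1 Hist1h3g was higher, at 6.35 TPM (32 reads, 4.35 to 8.97), but it was at 1.13 TPM from 2 reads in replicate 2. The 13 H4 genes summed to 103 and 153 TPM, mostly through Hist1h4n at 54.3 TPM (47.4 to 62.0) and 87.0 TPM (72.4 to 104). The summed H2A level was 72.8 and 112 times that of H3 and 17.1 and 12.0 times that of H4.

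The 5 linker histone H1 genes summed to 74.2 and 87.0 TPM. Hist1h1b held most of it at 61.9 and 64.0 TPM, and its intervals overlapped (56.2 to 68.0 and 54.5 to 74.8 TPM). The other 4 were at 1.13 to 10.4 TPM over both libraries.

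The lowest members above 0 were Hist1h2ba at 0.274 and 0 TPM, Hist2h3c1 at 0 and 0.492 TPM, Hist1h3d at 0.168 and 0.718 TPM, Hist1h3f at 0.167 and 1.19 TPM and Hist2h3c2 at 0.413 and 1.17 TPM. Each rested on 5 or fewer reads in each library. Of the 67 genes, 12 had under 10 reads in replicate 1 and 30 in replicate 2, so an order among the low genes could not be read at this depth. The floor of 3 reads stands at 0.822 TPM in replicate 1 and 2.34 TPM in replicate 2 for Hist1h2ba.

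The germ cell histones on the list had few reads, and the libraries differed. Hist1h2aa and Hist1h2ba encode the H2A and H2B forms that replace the canonical ones in the testis. Hist1h2aa had 26 reads in replicate 1 and 1 in replicate 2, which gave 7.01 TPM (4.58 to 10.3) and 0.767 TPM (0.0194 to 4.27). Hist1h2ba had 1 and 0 reads. H1foo, the oocyte linker histone, had 6 and 16 reads, at 0.526 and 3.98 TPM. Tnp1, a transition protein of spermatids, had 10 and 0 reads, and the other 6 genes of that list were not analysed here.

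H2A genes stood apart from the other families in the annotation as well. A gene model annotated as a miRNA, 129 to 144 bases long and on the opposite strand, overlaps 19 of the 20 replication-dependent H2A genes. None of the H1, H2B, H3 and H4 genes has one. These models have rows of their own in the table and carried reads. In Hist1h2ah, with 1895 and 735 reads, the model Gm44390 had 1435 and 546 reads, and its level was 1049 and 1134 TPM. In Hist1h2ap, with 1691 and 556 reads, Gm44466 had 1265 and 391. In the 12 H2A genes with at least 50 reads in replicate 1, the model had 34.1% to 97.6% of the gene's number of reads there, with a median of 68.9%, and 28.6% to 98.3% in replicate 2. The 19 models summed to 3746 and 3805 TPM, more than the H2A genes that they overlap. TPM is divided by length, and in the 12 genes above the length of the model is 6.43% to 40.3% of the exon length of the gene. The higher TPM is thus not a higher number of reads. Without strand, which is not stated for these counts, reads of the gene and of the model that overlaps it cannot be told apart.

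**Figure D2:**
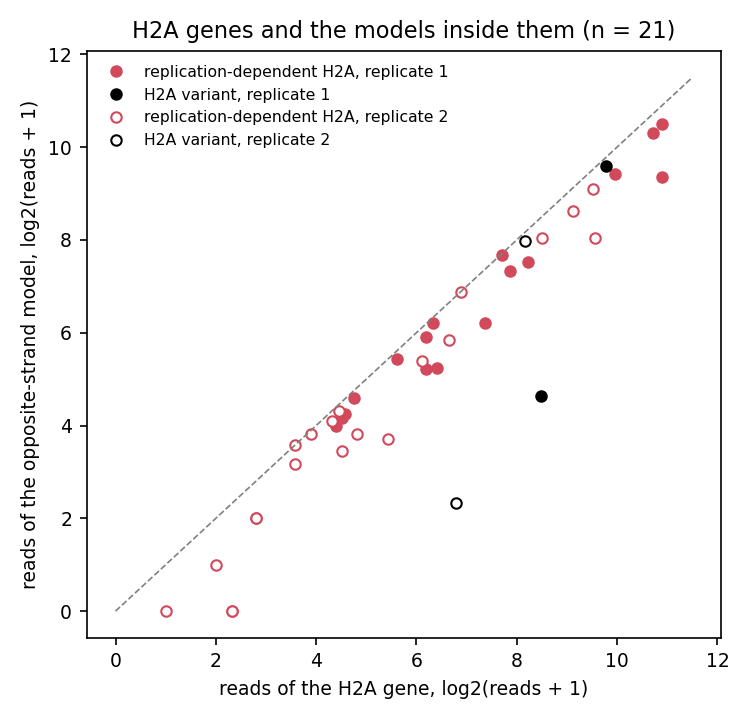
Reads of 21 H2A genes (19 replication-dependent in red, H2afj and H2afx in black) on the horizontal axis and of the opposite-strand miRNA model that overlaps each on the vertical axis. Both are log2(reads + 1), with replicate 1 filled and replicate 2 open, and with a dashed line of equal reads. Most points lie just under the line, and H2afx lies far below it at 356 and 24 reads in replicate 1.

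Some genes that overlap on the same strand also had nearly equal reads, and others did not. Hist3h2a and Trim17 overlap on chr11 and had 297 and 298 reads in replicate 1 and 99 and 98 in replicate 2. Hist2h2bb and the long noncoding model Gm42743 had 60 and 58 reads in replicate 1 and 30 and 28 in replicate 2. Hist1h1e and Hist1h2be, both members, overlap on chr13 and had 48 and 38 reads in replicate 1 and 30 and 29 in replicate 2. Against this, Hist1h1e and the pseudogene Gm11398 had 48 and 4 reads in replicate 1 and 30 and 8 in replicate 2, Hist1h2ac and Gm24991 had 22 and 0 in both libraries, and Hist2h3c1 and Gm20634 had 0 and 20 in replicate 1 and 3 and 9 in replicate 2. In all, 26 of the 67 replication-dependent genes have an exon that overlaps another gene's exon, and their median was 13.9 TPM in replicate 1 and 8.81 TPM in replicate 2, and these values are uncertain.

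Sequence shared between copies adds to this. Of the 67 genes, 25 share at least 50% of their 100-base windows with transcripts of other genes elsewhere, among them the 4 highest H2A genes at 76.2% (Hist1h2ag) to 92.7% (Hist1h2ao). How the counting handled reads with several places in the genome is not stated, and the split of reads among these copies is uncertain. The 42 genes under 50% held 422 TPM in replicate 1, against 1748 TPM for the 25.

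Position within the large Hist1 cluster on chromosome 13 went with the level. The cluster's genes fall into 2 stretches that are separated by a gap, and Hist1h2al lies alone, far away, at chr13:51202727-51203065. The first stretch, from 21715763 to 22043676, holds 24 members with a median of 15.4 and 15.6 TPM and a sum of 1911 and 2092 TPM. The second, from 23531050 to 23934851, holds 30 members with a median of 2.89 and 2.71 TPM and a sum of 180 and 178 TPM. Of the sum of the first stretch, 1496 and 1580 TPM came from the 4 highest H2A genes, whose reads are uncertain as given above. What overlap and shared sequence add to the contrast between the stretches was not tested.

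In each family the median was higher in the first stretch, to a different degree. Ranges overlapped between the stretches for H2A, H2B and H4 in both libraries and for H3 in replicate 1. The 8 H2A genes in the first had a median of 141 and 163 TPM, and the 6 in the second had a median of 6.06 and 4.98 TPM. H2B medians were closer, at 5.45 and 6.95 TPM for 8 genes in the first and 3.70 and 3.21 TPM for 7 genes in the second. For H4 they were 5.23 and 10.4 TPM (5 genes) against 3.40 and 2.89 TPM (6 genes). For H3 they were 2.94 and 4.003 TPM (2 genes) against 2.14 and 0.950 TPM (7 genes). The 2 H3 genes of the first stretch, Hist1h3h and Hist1h3i, had 13 and 10 reads in replicate 1 and 4 and 7 in replicate 2. Hist1h1b, the 1 H1 gene of the first stretch, was at 61.9 and 64.0 TPM, and the 4 in the second had a median of 3.22 and 5.76 TPM. The Hist2 cluster on chromosome 3, with 9 members, summed to 41.3 and 39.4 TPM, the 2 genes of Hist3 to 21.8 and 27.0 TPM, and Hist4h4 was at 1.62 and 0.418 TPM.

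**Figure D3:**
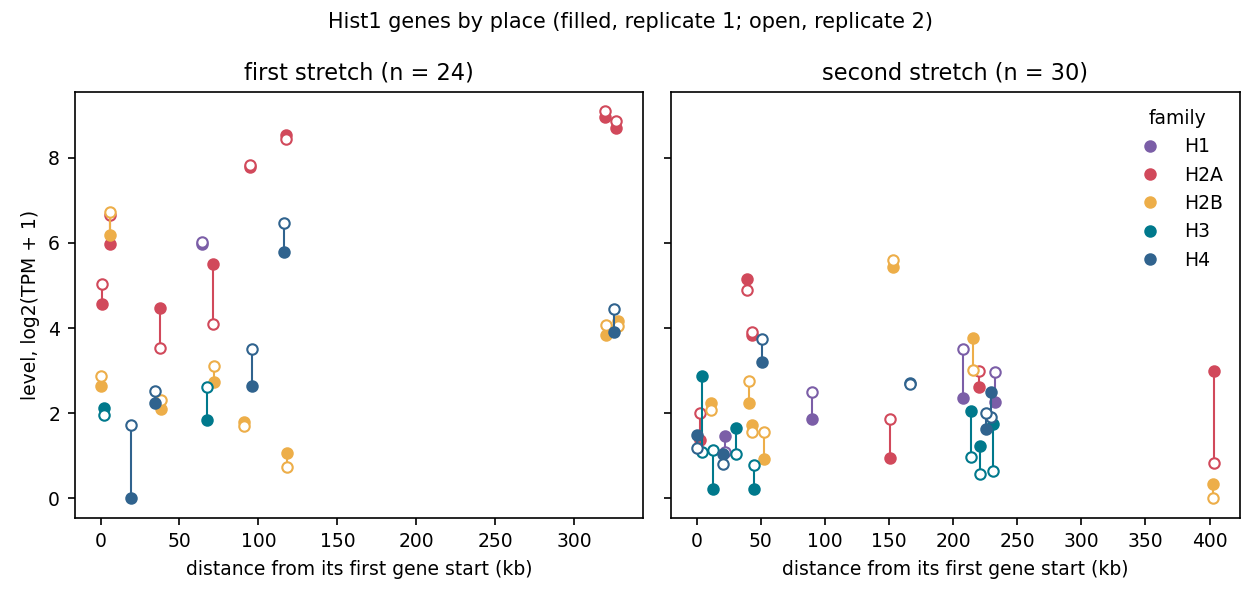
Level of the Hist1 genes in log2(TPM + 1) by distance in kb from the first gene start of each stretch, coloured by family, with replicate 1 filled and replicate 2 open. The 24 genes of the first stretch (left) include all 8 H2A genes above 10 TPM in both libraries there, and most of the 30 genes of the second stretch (right) lie low, with medians of 2.89 and 2.71 TPM.

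Many H2A and H2B genes start head to head and share the sequence between their starts. There were 12 such pairs, with 176 to 306 bases between the starts. The H2A gene was higher in both libraries in 10 pairs and the H2B gene in 2, and the median difference was 2.71 and 2.16 on the log2(TPM + 1) scale. For Hist1h2aa and Hist1h2ba, counted among the 10, replicate 2 had 1 read against 0, which gives no order. Hist1h2ap stood at 369 and 345 TPM while its partner Hist1h2br was at 1.09 and 0.676 TPM, a difference of 7.47 and 7.69 on the log2 scale. Hist1h2ah, at 492 and 543 TPM, faced Hist1h2bk at 13.3 and 15.7 TPM. The reverse held for Hist1h2bc at 42.4 and 47.4 TPM, whose partner Hist1h2ac was at 0.932 and 2.65 TPM. Hist1h2aj and Hist1h2bm were nearly level, with 62.2 against 71.5 TPM in replicate 1 and 100 against 104 TPM in replicate 2, and their intervals overlapped in both libraries. These are also pairs of genes in which the H2A partner overlaps a miRNA model and the H2B partner does not. Hist1h2br is given a model of 2212 bases, against 482 for Hist1h2ap, and had 23 and 5 reads against 1691 and 556. Hist1h2br shares 86.4% of its 100-base windows with other genes and Hist1h2ap 92.2%, so the split of reads is uncertain for both.

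**Figure D4:**
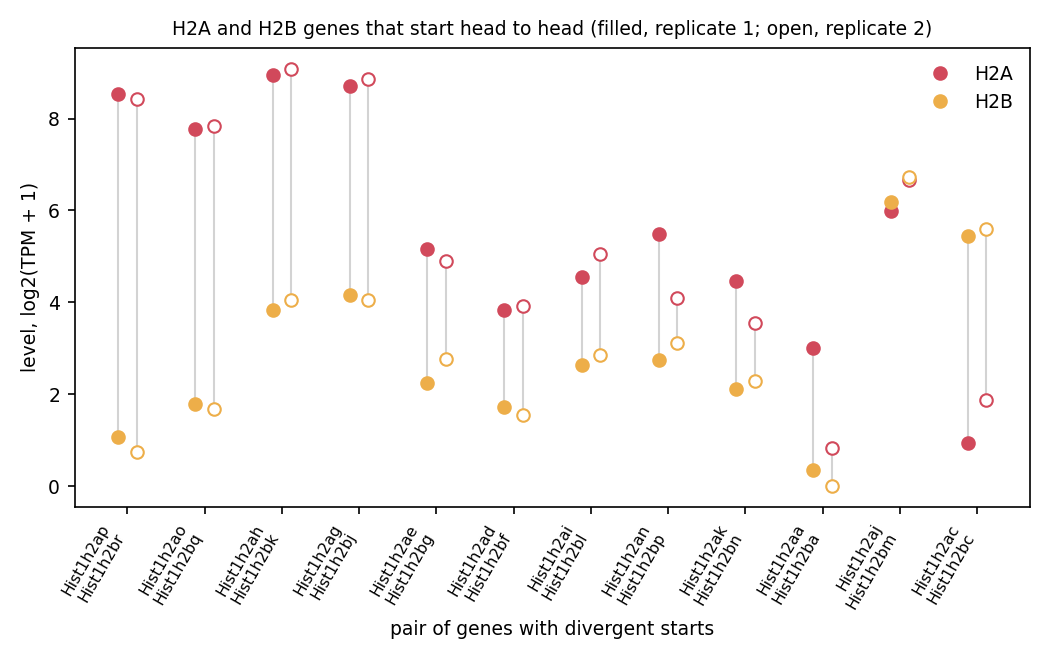
Levels in log2(TPM + 1) of the 12 H2A (red) and H2B (yellow) pairs with divergent starts, ordered by the difference, with replicate 1 filled and replicate 2 open and a grey line joining the partners. H2A lies above H2B in 10 pairs in both libraries, 1 of them (Hist1h2aa) by 1 read in replicate 2, and the pairs at the right end, Hist1h2aj with Hist1h2bm and Hist1h2ac with Hist1h2bc, have H2B higher.

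Transcript ends were compared as annotated. Genes whose model ends within 100 bases of the stem-loop (23) had a median of 5.66 and 6.96 TPM, and those whose model runs on for over 100 bases (22) had 2.38 and 2.71 TPM. The polyadenylation signal AATAAA lies after the stop in 17 of the 65 coding genes, whose median was 2.45 and 2.65 TPM, against 4.47 and 5.28 TPM in the 48 without it. Of the other protein-coding genes 83.8% held it, with models that run much longer past the stop (median 1222.5 bases). Hist1h2bc has AATAAA and no stem-loop in a model with 742 bases after its stop, and was the second highest H2B gene. A longer model lowers TPM for the same reads, so these medians also carry the choice of model. Exon lengths of the replication-dependent genes ran from 312 to 7425 bases, with a median of 530, and 62 of the 67 had 1 exon.

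The highest variant was H3f3b, which encodes the same protein as H3f3a, H3.3, a variant that is placed into chromatin throughout the cell cycle. H3f3b was at 4049 TPM (4026 to 4073) in replicate 1 and 3678 TPM (3641 to 3716) in replicate 2, and ranked 28 among all genes by mean TPM. H3f3a was at 309 and 305 TPM, so H3f3b was 13.1 and 12.1 times higher. H3f3a overlaps the opposite-strand gene Gm17275, which had 9583 and 3305 reads against 10275 and 3567 for H3f3a, and these cannot be told apart. The summed level of both genes was 180 and 243 times that of all 12 replication-dependent H3 genes. H3f3b alone was 1.87 and 1.56 times the sum of all 67 replication-dependent genes.

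H2afz and H2afv encode the forms of H2A.Z, a variant found around transcription starts. H2afz was at 2203 and 2257 TPM, ranking 62 among all genes, and H2afv was at 731 and 681 TPM, so that H2afz was 3.01 and 3.32 times higher. Both together were 1.67 and 1.60 times the sum of the replication-dependent H2A genes. H3f3b and H2afz held 82.7% and 82.8% of the variant TPM. H2afz shares 25.7% of its 100-base windows with other genes, and H3f3b 1.92%.

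Other H2A variants were lower. The macroH2A genes, whose products carry a large extra domain, were H2afy at 52.3 and 47.4 TPM and H2afy2 at 4.69 and 5.91 TPM. H2afy was thus 11.2 and 8.02 times higher than H2afy2. H2afy2 overlaps the opposite-strand gene Aifm2, which had 146 and 61 reads against 97 and 43 for H2afy2. H2afy overlaps the opposite-strand model Gm47071, which had 1002 and 392 reads against 3386 and 1080 for H2afy. Without strand, reads in these overlaps cannot be told apart, and both levels and their ratio are uncertain. H2afj was at 50.4 and 46.9 TPM, but the miRNA model Gm44364, which overlaps it, had 770 and 252 reads against 877 and 287 for the gene. That is 87.8% in both libraries, from a model with 7.70% of the exon length of the gene. H2afx was at 27.1 and 23.8 TPM, and the model Gm44335, which overlaps it, had 24 and 4 reads against 356 and 110.

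Cenpa, the H3 variant that marks centromeres, was at 57.8 TPM (55.8 to 59.9) and 50.7 TPM (47.6 to 54.0), and its intervals did not overlap. Of the linker variants, H1f0 was at 40.9 and 41.2 TPM, H1fx at 0.519 and 0.983 TPM from 6 and 4 reads, and H1foo as given above. The H3.3 pseudogenes were H3f3a-ps1 at 19.8 and 16.8 TPM, H3f3c at 13.8 and 8.73 TPM and H3f3a-ps2 at 2.05 and 1.46 TPM, and H3f3c and H3f3a-ps2 share 56.7% and 68.9% of their windows with other genes. In order of level the variants ran H3f3b, H2afz, H2afv, H3f3a, Cenpa, H2afy, H2afj, H1f0 and H2afx. H2afy and H2afj, neighbours in this order, had intervals that overlapped in both (50.6 to 54.1 and 47.1 to 53.9 TPM in replicate 1). In replicate 2 the intervals of Cenpa and H2afy overlapped too, as did those of H2afj and H1f0, so this part of the order was not resolved there.

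Replicates were close for most members. On the log2(TPM + 1) scale the median difference, replicate 2 minus replicate 1, was 0.16 over the replication-dependent genes, with 38 higher and 29 lower in replicate 2, and -0.10 over the variants, with 5 higher and 10 lower. More than 2-fold higher in replicate 2 were 2 replication-dependent genes (2.99%), where 4.31% of all genes were, and more than 2-fold lower were 6 (8.96%), where 5.89% of all genes were. Among the variants, H1foo alone passed 2-fold. Counting intervals of the libraries did not overlap for 12 replication-dependent genes (17.9%) and 5 variants (33.3%), where 24.7% of all genes had intervals apart.

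Of the 8 replication-dependent genes over 2-fold, 3 had at least 50 reads in total. The share of all genes that pass both limits was not taken, so this count has no background. Hist1h1c went from 4.11 TPM (61 reads) in replicate 1 to 10.4 TPM (54 reads) in replicate 2, a difference of 1.15 on the log2 scale. Hist1h2an went from 44.2 TPM (165 reads) to 15.98 TPM (21 reads), a difference of -1.41. Hist2h2ac went from 14.6 TPM (72 reads) to 6.33 TPM (11 reads), a difference of -1.09. The intervals of all 3 were apart, and Hist1h2an shares 83.3% of its windows with other genes.

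**Figure D5:**
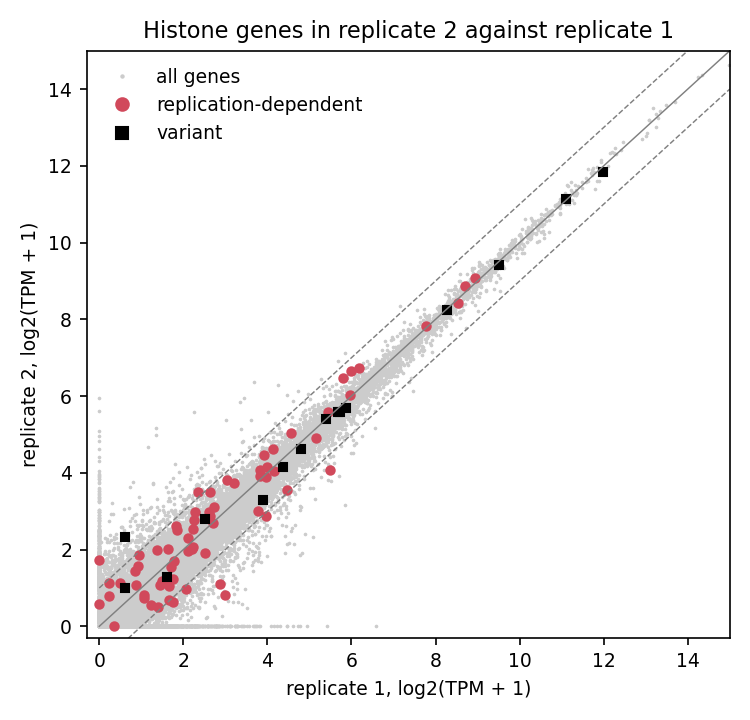
Level of every gene in replicate 2 against replicate 1 in log2(TPM + 1), with all genes in grey, replication-dependent histone genes in red and variants in black. The solid line marks equal levels and the dashed lines a 2-fold difference, and 8 replication-dependent genes and 1 variant lie outside the dashed lines.

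Genes that make and end histone mRNAs were given for context, from a list of 17 of which 15 had a row. Their median was 18.0 and 16.6 TPM. A TPM of 1 or more in both libraries was reached by 13 of them, where 60% of all genes did. Slbp, the protein that binds the stem-loop, was at 87.6 and 71.9 TPM. Lsm10, a subunit of the U7 particle that guides the cut after the stem-loop, was at 129 and 106 TPM, while its partner Lsm11 was at 0.522 and 1.34 TPM. Npat, which switches on histone genes in S phase, was at 18.0 and 19.1 TPM, and Casp8ap2 was at 19.2 and 17.4 TPM. Of the cleavage factors, Cpsf3, the nuclease, was at 26.7 and 32.1 TPM, Cpsf2 at 18.5 and 16.6 TPM and Cstf2 at 10.4 and 10.1 TPM. The cap-binding genes Ncbp1 and Ncbp2 were at 30.04 and 21.1 TPM and at 95.4 and 80.6 TPM, and Srrt at 14.8 and 16.4 TPM. Lower were Eri1, which trims the stem-loop end, at 5.74 and 5.40 TPM, Upf1 at 1.64 and 1.42 TPM, Zcchc8 at 5.67 and 3.99 TPM and Zfp473 at 1.90 and 0.745 TPM.

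Chaperones of newly made histones spanned a wide range, with a median of 20.8 and 18.7 TPM over 15 of 16 listed genes. Npm1, an abundant nucleolar chaperone, was at 2202 and 2074 TPM. Hat1, which acetylates new H4, was at 626 and 562 TPM, and its partner Rbbp7 at 133 and 138 TPM. Nap1l1, a chaperone of H2A and H2B, was at 253 and 271 TPM and Nap1l4 at 17.0 and 14.8 TPM. Of the H3 and H4 chaperones, Asf1a was at 224 and 189 TPM, Asf1b at 56.6 and 46.3 TPM and Nasp at 86.0 and 85.1 TPM. CAF-1, which places new H3 and H4 behind the fork, had Chaf1a at 11.2 and 13.02 TPM, Chaf1b at 1.01 and 0.897 TPM and Rbbp4 at 9.94 and 13.5 TPM. Mcm2 was at 20.8 and 18.7 TPM, Ipo4 at 13.3 and 10.3 TPM, Tonsl at 5.50 and 6.58 TPM and Cdan1 at 2.49 and 2.12 TPM.

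Genes that place variants had a median of 15.8 and 15.6 TPM over 18 genes. Of these, 16 were at a TPM of 1 or more in both libraries, where 60% of all genes were. For H3.3, Atrx was at 27.7 and 26.5 TPM and Daxx at 7.84 and 6.16 TPM, while the HIRA complex was lower, with Hira at 4.12 and 2.39 TPM, Ubn1 at 1.501 and 0.976 TPM, Ubn2 at 1.68 and 1.72 TPM and Cabin1 at 1.498 and 1.58 TPM. For Cenpa, Mis18a was at 81.6 and 68.8 TPM and Oip5 at 42.4 and 39.5 TPM, while the chaperone Hjurp was at 3.03 and 2.91 TPM. For H2A.Z, Anp32e, which removes it, was at 49.9 and 47.7 TPM and Znhit1 at 23.8 and 26.4 TPM, whereas Ep400 was at 7.88 and 8.03 TPM, Vps72 at 1.82 and 1.64 TPM and Srcap at 0.287 and 0.303 TPM. Ssrp1 and Supt16, the subunits of the FACT chaperone, were at 92.2 and 93.4 TPM and at 62.5 and 63.2 TPM, and Chd1 was at 26.9 and 23.3 TPM. On the log2(TPM + 1) scale no gene on these 3 lists differed by more than 2-fold between the libraries, although the TPM of the low genes Lsm11 and Zfp473 did. The 14 S phase genes on the list had a median of 59.6 and 59.0 TPM, from E2f1 at 2.67 and 2.85 TPM to Gmnn at 570 and 585 TPM.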

How the data were processed

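The libraries of E9.5 PGCs, numbered 1 and 2 by their titles, form 1 group. The authors aligned reads to mm10 with Hisat2, counted them with featureCounts and deposited TPM for each gene in both libraries. The annotation, the use of strand and the handling of reads with several places or several genes are not given in the sources used here. The submitters' processing notes also name Bowtie2, RSEM, DESeq2 and R 3.4.2.

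Symbols were matched to GENCODE M21 (18748 with 1 identifier, including all 82 members). Deposited TPM times summed exon length gave whole multiples of 1 amount per library, taken as 1 read: 96.8% and 95.9% of values under 50 reads lay within 0.02 of a whole number. A read counted for several genes is included in each. Recovery was also run on counts simulated with these same lengths. Such a run cannot show whether the lengths match the authors', or whether 1 amount is a read or a read pair. Reads gave exact 95% Poisson intervals and a floor of 3 reads, and molecules cannot be counted without identifiers. No count test was run, since there is 1 group.

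Levels are log2(TPM + 1), which understates differences between low genes. Window sharing used 100-base windows on either strand and left out genes at the member's own place. Members and gene lists were chosen with earlier results of these data known, and no p-value was computed. The text names every variant, the 10 highest and 5 lowest replication-dependent genes, the highest of each family, those over 2-fold apart with at least 50 reads, the germ cell histones and the genes of the 3 context lists, of which 1 value is not reported here. Other members, named for an overlap, a pair or a stem-loop, and the split of the cluster were chosen after their values were seen. Genes with no row were not analysed here. Alternatives were a pseudocount of 0.1, filters on TPM, scaling to protein-coding genes, protein-coding members and leaving out each library. Those on overlap, shared windows and reads were chosen after seeing the data. Python 3.11.15, numpy 2.4.6, pandas 2.3.3, scipy 1.17.1 and matplotlib 3.10.9 were used.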

Additional observations from a re-analysis of the deposited data

How the results depend on the processing

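Of 60 values under alternatives, 34 moved by less than the spread between the libraries (counts, by less than 1.5 times), 26 moved further and none changed sign. Leaving out a library keeps a mean of both within that spread by construction, so those values among the 34 say nothing about stability. Shares, counts and log2(TPM + 1) medians cannot turn negative, so most values could not change sign. The median of the replication-dependent genes (2.40 on the log2(TPM + 1) scale, mean of both libraries) was 2.13 with a pseudocount of 0.1, 2.76 at a mean TPM of at least 1 (58 genes), 2.85 with TPM scaled to protein-coding genes, 2.15 without exon overlaps and 2.15 for genes sharing under 50% of windows. For the variants (5.39) these were 5.36, 5.51 (14 genes), 5.91 and 5.02 (8 genes without overlap), with 5.65 for the 12 protein-coding members. The difference of medians (2.99) was 3.23 with the pseudocount, 2.76 with the TPM filter, 3.28 for protein-coding members and 3.24 with little shared sequence. Scaling to protein-coding genes raised the median of all genes by 0.39 and 0.41. It raised the share of TPM from 0.226% to 0.326% for replication-dependent genes and from 0.737% to 1.06% for variants. The replication-dependent share was 0.0434% without overlaps, 0.0439% with little shared sequence and 0.0709% as reads, and the variant share was 0.689% without overlaps and 1.12% as reads. Replication-dependent genes at 5 TPM or more in both libraries numbered 29, against 49 at 1. Of the 42 with little shared sequence, 29 reached 1, where 60% of all genes and 8813 of 12679 protein-coding genes did. The share of all genes at 5 TPM was not taken. The supply genes (4.22) were at 4.15 with the pseudocount, 4.32 with the filter and 4.72 with the scaling. Leaving out a library gave 2.27 to 2.53 for the replication-dependent median and 5.39 to 5.40 for the variant median. Beyond what each alternative's construction shows, the cause was not tested. Depth limits the low genes, since 30 replication-dependent genes had under 10 reads in replicate 2.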
